A study of Caenorhabditis elegans with 8 samples.

Results

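The genes described here are the major sperm protein genes (msp) of Caenorhabditis elegans and 5 further families of sperm genes. These are the msd genes (major sperm protein domain), the ssp genes (sperm-specific family, class P), the nspd and nspa genes (nematode-specific peptides of groups D and A), and the phosphatase genes gsp-3 and gsp-4. Members were chosen by gene symbol, and a gene was kept where all 4 arrays of a genotype showed a probe of it well above background. The reference gene table holds 78 genes with these symbols, of which 58 had a probe on the array and 20 had none. All 58 passed the filter, so they are the members among 18314 genes and unnamed targets tested. They were 27 msp genes, 4 msd genes, 11 ssp genes, gsp-3 and gsp-4, 10 nspd genes and 4 nspa genes. The 92 probes of the members were each well above background on all 8 arrays, and none was saturated, so no difference given below for a member was treated as a bound. The signal of nspd-8 was low all the same, as given below.

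A nematode sperm has no flagellum and crawls on a pseudopod. Its motor is the assembly and disassembly of filaments of major sperm protein, which takes the place that actin has in other crawling cells. The same protein is released from sperm and acts as a signal on oocytes and on the gonadal sheath around them, where it promotes oocyte maturation and sheath contraction. In the hermaphrodite the germ line makes sperm during the fourth larval stage (L4) and then switches to oocytes, so that sperm genes are strongly expressed in the germ line at this stage.

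RNA came from whole L4 hermaphrodites, which the study describes as sleeping. One group was the wild-type strain N2, with no mutation named in its labels, and the other carried aptf-1(gk794), a deletion allele on chromosome II of the gene for an AP2 transcription factor that the study examined for its role in sleep. Each group had 4 samples of 200 animals grown at 21.5 °C, with 1 single-color Agilent array per sample. The deletion was carried in all cells, and the whole animal was measured, so that fewer sperm-forming cells and less RNA per cell cannot be told apart.

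Between 72.2% and 79.7% of the spots of an array were well above background. Each array was scaled by its 75th percentile, which was lowest on N2 replicate 1 (a processed signal of 316) and highest on aptf-1(gk794) replicate 3 (839). The 8 arrays lay on 2 slides with 2 arrays of each genotype, and on both slides N2 lay at positions 1 and 2 and the mutant at positions 3 and 4, so that position and genotype could be separated only by assuming a linear trend. The single probe for aptf-1 did not follow all labels. Its log2 level was -5.34, -5.24, -5.18 and -5.58 in N2 replicates 1 to 4 and -5.96, -7.22, -4.29 and -7.13 in aptf-1(gk794) replicates 1 to 4. The array labelled aptf-1(gk794) replicate 3 was above every N2 array, replicates 2 and 4 of the mutant were not well above background, and whether this probe lies in the deleted part of the gene is not known here. The neuropeptide gene flp-11, added after its values were seen, followed all labels, with levels of 0.45 to 0.60 in N2 and -0.71 to -0.64 in aptf-1(gk794), replicate 3 included (difference -1.18, adjusted p = 0.0028 by limma). Arrays are called by their labels throughout, and leaving out the one with that aptf-1 signal gave 57 of 58 members below 0 and a median difference over all members of -0.18, on the scale described next.

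A level is the log2 of the processed signal of a gene relative to the 75th percentile of its array, averaged over the probes of the gene, and a difference is the mean of aptf-1(gk794) minus the mean of N2 on this scale. The 58 members gave small differences that all had the same sign. Each of them was below 0, against 54.7% of all genes tested, and the median was -0.17, or 88.8% of the N2 level, against -0.026 over all genes tested. Bright genes that are no members were below 0 more often than all genes tested. The share was 85.1% at a mean level of 4 to 6 and 92.9% above 6, and those ranges held 19 and 22 of the members. The differences ran from -0.36 for nspa-4 to -0.025 for gsp-4, which is from 77.7% to 98.3% of the N2 level. With median scaling all 58 were also below 0, while 4 other alternatives of normalization or of the terms of the fit gave mixed signs. After quantile normalization, and in the values the authors deposited, 37 of the 58 were below 0, after normexp background correction with quantile normalization 33 were, and with a term for slide and position 21 were. All but the last of these share the quantile step. Leaving out 1 array at a time gave 55 to 58 members below 0, and leaving out both arrays at position 4 gave 57.

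A gene was called at a fold change of 1.5 or more and an adjusted p under 0.05. Of all genes tested 0.0928% were called, and of the 58 members 0 were. The smallest adjusted p of a member was 0.369 (limma with Benjamini-Hochberg adjustment over all genes tested). At an unadjusted p under 0.05, 4 members were lower in aptf-1(gk794), against 7.76% of all genes tested, and 0 were higher, against 4.48%. The count of lower members is near the background share. The 95% interval of the difference included 0 for 54 members. It lay inside the 1.5-fold limits for 45 members and went past the lower limit for the other 13, the farthest being -0.87 for nspd-8. The 4 arrays of one genotype lay wholly below those of the other for 0 members in the direction lower in the mutant, against 5.02% of all genes tested, and for 0 in the direction higher, against 3.1%.

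**Figure D1:**
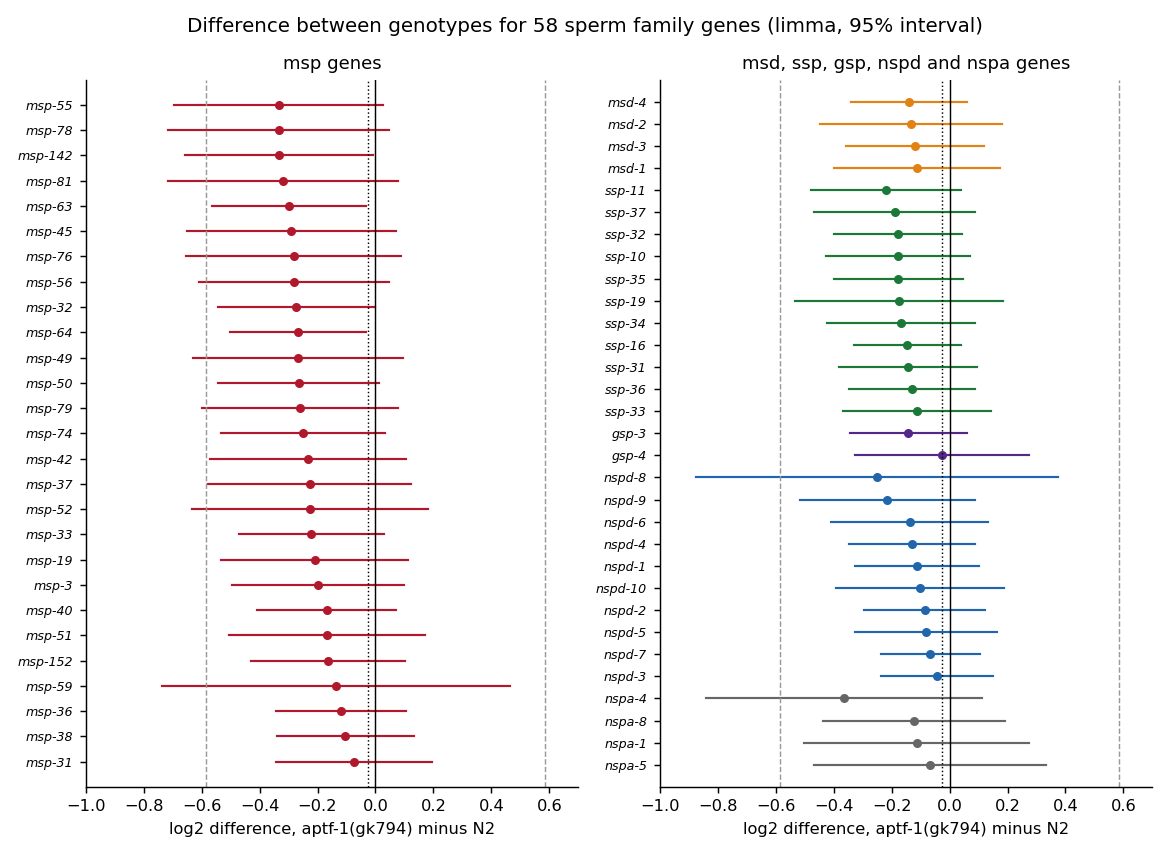
Difference between aptf-1(gk794) and N2 for each of the 58 members (points) with its 95% interval from limma (lines), on the log2 scale, grouped by family. Solid line, no difference; dotted line, the median of all genes tested (-0.026); dashed lines, a 1.5-fold difference. All points lie below 0 in the scaling used here, while 37 of 58 do after quantile normalization, and 54 intervals include 0.

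The msp genes encode the major sperm protein itself. Of 35 genes with this symbol in the reference table, 27 were measured, 14 on chromosome II and 13 on chromosome IV, and 3 of them, msp-37, msp-42 and msp-52, are annotated as pseudogenes. The copies are nearly identical in sequence, and the signal of a probe may hold RNA of other copies than the one it is named for, so the 27 values are not independent of each other. The median of their signals stood at the 99.6th to 99.8th percentile of the genes tested on every array, with no separation of the genotypes.

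The mean level of the 27 msp genes was 7.61, 7.31, 7.12 and 7.08 in N2 replicates 1 to 4 and 6.91, 7.092, 7.097 and 7.091 in aptf-1(gk794) replicates 1 to 4. N2 replicate 1 was the highest array and aptf-1(gk794) replicate 1 the lowest, and the other 6 arrays lay between them with the genotypes overlapping. The group means were 7.28 ± 0.24 for N2 and 7.05 ± 0.091 for aptf-1(gk794) (SD, n = 4). Over the 27 genes the median difference was -0.25, from -0.33 to -0.073, or from 79.3% to 95.1% of the N2 level. The median was -0.26 on chromosome II and -0.23 on chromosome IV. It was -0.015 after quantile normalization, with 17 of 27 genes below 0, and 0.0083 after normexp with quantile normalization, with 12 of 27 below 0. Quantile normalization gives equal ranks equal values on every array. The msp genes had nearly the same top ranks on all 8 arrays, so this step can show little of a difference that they share.

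The smallest p among all members belonged to msp-64. Its level was 6.54, 6.34, 6.25 and 6.14 in N2 replicates 1 to 4 and 5.98, 6.04, 6.16 and 6.03 in aptf-1(gk794) replicates 1 to 4. A single mutant array, replicate 3, lay above the lowest N2 array, replicate 4. The difference was -0.27 (95% interval -0.50 to -0.032, adjusted p = 0.369 by limma).

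For msp-63 the N2 replicates had levels of 5.78, 5.63, 5.56 and 5.37, and the aptf-1(gk794) replicates 5.38, 5.22, 5.43 and 5.11. Replicates 1 and 3 of the mutant lay above N2 replicate 4, and the difference was -0.30 (adjusted p = 0.373 by limma). For msp-142 the levels were 5.05, 4.84, 4.68 and 4.48 in N2 and 4.53, 4.33, 4.61 and 4.26 in aptf-1(gk794). The same 3 arrays overlapped there, and the difference was -0.33 (adjusted p = 0.400 by limma). The fourth member with an unadjusted p under 0.05 was msp-32, which is outside the rule for named genes and was chosen after its values were seen. Its levels were 6.10, 5.86, 5.76 and 5.60 in N2 and 5.52, 5.53, 5.69 and 5.47 in aptf-1(gk794), with mutant replicate 3 above N2 replicate 4 and a difference of -0.27 (adjusted p = 0.406 by limma). These 4 genes all lie on chromosome II, and each was below 0 on both slides. With the slide and position term the differences of msp-63, msp-64 and msp-142 turned to values above 0.

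The lowest difference of the family was that of msp-55 on chromosome IV. Its levels were 8.19, 7.90, 7.57 and 7.67 in N2 and 7.24, 7.51, 7.58 and 7.66 in aptf-1(gk794). N2 replicates 1 and 2 were the high arrays and mutant replicate 1 the low one, while N2 replicates 3 and 4 lay within the range of the other mutant arrays or at its edge. The difference was -0.33 (adjusted p = 0.424 by limma).

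At the median of the family stood msp-74, with levels of 8.26, 7.92, 7.76 and 7.78 in N2 and 7.65, 7.79, 7.65 and 7.64 in aptf-1(gk794). Only mutant replicate 2 reached into the N2 range, and the difference was -0.25 (adjusted p = 0.442 by limma). At the upper end was msp-31, with 5 probes whose own differences ran from -0.092 to -0.023. Its levels were 6.11, 5.94, 5.88 and 5.73 in N2 and 5.63, 6.01, 5.80 and 5.93 in aptf-1(gk794), and its difference of -0.073 (adjusted p = 0.790 by limma) was 0.077 after quantile normalization. The N2 arrays had the widest spread for msp-59, a gene added after its values were seen, with levels of 8.14, 7.72, 7.63 and 6.85 and an SD of 0.54. Its difference was -0.56 between the arrays of slide 1 and 0.28 between those of slide 2.

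**Figure D2:**
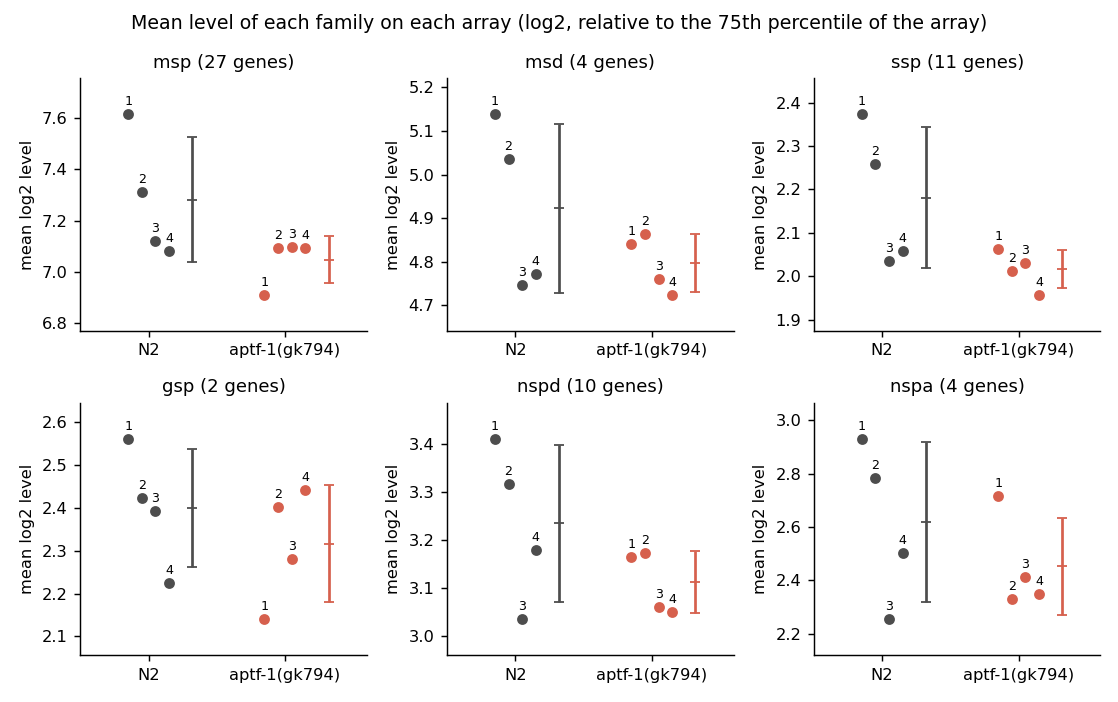
Mean log2 level of the genes of each family on each array, relative to the 75th percentile of the array. Points are arrays with their replicate number, and bars are the mean ± SD of 4 arrays. N2 replicate 1 is the highest array in each of the 6 families, and the genotypes overlap in all of them.

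The msd genes encode small proteins built on the major sperm protein domain. All 4 genes with this symbol were measured, 3 on chromosome IV and msd-4 on chromosome III. Their mean level was 5.14, 5.04, 4.75 and 4.77 in N2 replicates 1 to 4 and 4.84, 4.86, 4.76 and 4.72 in aptf-1(gk794) replicates 1 to 4, so that N2 replicates 1 and 2 stood above the other 6 arrays. The median difference was -0.13, and it was 0.0031 after quantile normalization. The 4 genes were close together, from -0.14 for msd-4 to -0.11 for msd-1.

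For msd-4 the levels were 4.38, 4.32, 4.20 and 4.18 in N2 and 4.21, 4.19, 4.13 and 3.98 in aptf-1(gk794). The upper pair of mutant arrays lay within the N2 range, and the difference was -0.14 (adjusted p = 0.514 by limma). For msd-2 the N2 range of 4.23 to 4.81 enclosed the mutant range of 4.28 to 4.43, with a difference of -0.13 (adjusted p = 0.668 by limma). For msd-3 the ranges were 5.68 to 6.03 and 5.69 to 5.77, and for msd-1 they were 4.87 to 5.34 and 4.87 to 5.06. Quantile normalization turned the differences of msd-1, msd-2 and msd-3 to between 0.0013 and 0.045, and the difference of msd-4 kept its sign there.

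The ssp genes encode a further group of short proteins with a major sperm protein domain. Of 13 genes, 11 were measured, 5 on chromosome IV, 4 on chromosome I and 2 on chromosome V. Their mean level was 2.37, 2.26, 2.03 and 2.06 in N2 replicates 1 to 4 and 2.06, 2.01, 2.03 and 1.96 in aptf-1(gk794) replicates 1 to 4. N2 replicates 1 and 2 were again the high arrays, and N2 replicates 3 and 4 lay among the mutant arrays. The median difference was -0.17, from -0.22 to -0.11. The sign of the 11 differences was the same after quantile normalization, where the median was -0.13, after normexp and in the deposited values, and it was lost with the slide and position term, where 2 of 11 were below 0.

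The lowest difference and the smallest p of the family were those of ssp-11. Its levels were 5.23, 5.17, 4.88 and 4.87 in N2 and 4.92, 4.73, 4.86 and 4.75 in aptf-1(gk794), and only mutant replicate 1 lay above the lowest N2 array. The difference was -0.22 (95% interval -0.48 to 0.039, adjusted p = 0.456 by limma), and its 2 probes gave -0.23 and -0.20.

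For ssp-32 the levels were -0.77, -0.82, -1.13 and -0.96 in N2 and -1.14, -1.08, -1.07 and -1.10 in aptf-1(gk794). The mutant arrays had an SD of 0.032 (n = 4) and only N2 replicate 3 lay among them, with a difference of -0.18 (adjusted p = 0.470 by limma). For ssp-35 the ranges were 2.47 to 2.80 in N2 and 2.34 to 2.54 in the mutant, with the same difference of -0.18 (adjusted p = 0.474 by limma). At the family median, ssp-19 ranged from 0.63 to 1.11 in N2 and from 0.49 to 1.01 in the mutant. At the upper end, ssp-33 had a difference of -0.11, and its 2 probes gave -0.20 and -0.028.

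The phosphatases gsp-3 and gsp-4 are close relatives of protein phosphatase 1 that are found in sperm and serve sperm meiosis and motility. Both lie on chromosome I. For gsp-3 the levels were 3.46, 3.31, 3.32 and 3.17 in N2 replicates 1 to 4 and 3.06, 3.25, 3.18 and 3.19 in aptf-1(gk794) replicates 1 to 4. Mutant replicate 1 was the low array and N2 replicate 1 the high one, and the difference was -0.14 (95% interval -0.34 to 0.059, adjusted p = 0.510 by limma), with its 3 probes between -0.18 and -0.094. For gsp-4 the levels were 1.67, 1.54, 1.46 and 1.28 in N2 and 1.22, 1.55, 1.38 and 1.70 in aptf-1(gk794). Here a mutant array, replicate 4, was the highest, and the difference was -0.025 (95% interval -0.33 to 0.28, adjusted p = 0.941 by limma). It was above 0 without aptf-1(gk794) replicate 1 (0.056), without aptf-1(gk794) replicate 3 (0.0035) and without N2 replicate 1 (0.035).

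The nspd genes encode short peptides that are found in nematodes and enriched in sperm. Of 12 genes, 10 were measured, spread over chromosomes I, II, III and IV. Their mean level was 3.41, 3.32, 3.04 and 3.18 in N2 replicates 1 to 4 and 3.17, 3.17, 3.06 and 3.05 in aptf-1(gk794) replicates 1 to 4, with N2 replicate 3 as the lowest array. The median difference was -0.11, and it was 0.013 after quantile normalization, where 4 of 10 genes were below 0.

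The smallest p of the family was that of nspd-9. Its levels were 1.53, 1.15, 1.03 and 1.17 in N2 and 1.16, 0.93, 1.09 and 0.82 in aptf-1(gk794), with N2 replicate 1 standing above the rest and a difference of -0.22 (adjusted p = 0.510 by limma). For nspd-4 the ranges were 5.20 to 5.56 in N2 and 5.17 to 5.25 in the mutant, and for nspd-1 they were 4.63 to 4.96 and 4.64 to 4.796. Their differences were -0.13 and -0.11.

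The dimmest member was nspd-8, with levels of -5.20, -5.08, -6.07 and -5.67 in N2 and -5.18, -5.87, -5.86 and -6.11 in aptf-1(gk794). Its processed signal was low, from 7.4 to 23.0, where the median signal of an array was 48.2 to 128.7. Its arrays were spread far more widely than those of the other nspd genes, and the difference of -0.25 (95% interval -0.87 to 0.37, adjusted p = 0.684 by limma) was made up of 0.11 for slide 1 and -0.61 for slide 2. At the other end was nspd-3, with a difference of -0.043 (adjusted p = 0.832 by limma), which was 0.058 for slide 1 alone and 0.077 after quantile normalization.

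Of the nspa genes, 4 of 12 were measured, all on chromosome V. Their mean level was 2.93, 2.79, 2.26 and 2.503 in N2 replicates 1 to 4 and 2.72, 2.33, 2.41 and 2.35 in aptf-1(gk794) replicates 1 to 4. The N2 arrays covered the whole range of the mutant arrays, and the SD within N2 was 0.30 (n = 4). The lowest difference of all members was that of nspa-4, with levels of -0.30, -0.46, -1.003 and -0.69 in N2 and -0.57, -1.22, -0.83 and -1.29 in aptf-1(gk794). The difference was -0.36 (95% interval -0.84 to 0.11, adjusted p = 0.481 by limma), and its 5 probes ran from -0.40 to -0.33.

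For nspa-8, measured by 6 probes, the levels were 2.14, 1.92, 1.53 and 1.75 in N2 and 1.88, 1.64, 1.67 and 1.66 in aptf-1(gk794), with a difference of -0.12 (adjusted p = 0.698 by limma). The ranges of nspa-1 were 5.02 to 5.72 in N2 and 5.13 to 5.51 in the mutant, with a difference of -0.11. Those of nspa-5 were 3.47 to 4.17 and 3.67 to 4.05, with a difference of -0.069 that was above 0 without N2 replicate 1 (0.032) or without N2 replicate 2 (0.012).

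The members were alike in which arrays were high. N2 replicate 1 was the highest of the 8 arrays in 54 of the 58 members, among them all 27 msp genes, while it was the highest in 13.3% of all genes tested. N2 replicates 1 and 2 were the upper pair in 48 members, or 82.8% of them, against 6.78% of all genes tested. This pair lay at position 1 of slides 1 and 2, and N2 replicates 3 and 4 lay at position 2. A trait of these samples and their position on the slide cannot be told apart. The 183 bright non-members described further on, with a mean level above 6, also had N2 replicate 1 as the highest array and aptf-1(gk794) replicate 1 as the lowest, with median deviations of 0.18 and -0.19 from the mean of the 8 arrays. N2 replicate 4 came second there, with 0.096. The 349 non-members at a level of 4 to 6 had another order. There N2 replicate 4 was highest (0.13), N2 replicate 1 was at 0.050, and aptf-1(gk794) replicate 4 was lowest (-0.098). The exceptions to the first count were gsp-4 and nspd-7, highest on a mutant array, and nspd-3 and nspd-8, highest on N2 replicate 2. The lowest array was aptf-1(gk794) replicate 1 in 20 of the 27 msp genes and in 5 members of the other families. N2 replicate 1 was also the array with the lowest 75th percentile of the signal, and before scaling its msp mean of 15.92 on the log2 scale was the second lowest of the 8 arrays. The part of the scaling in these counts was not tested beyond the alternatives given here.

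**Figure D3:**
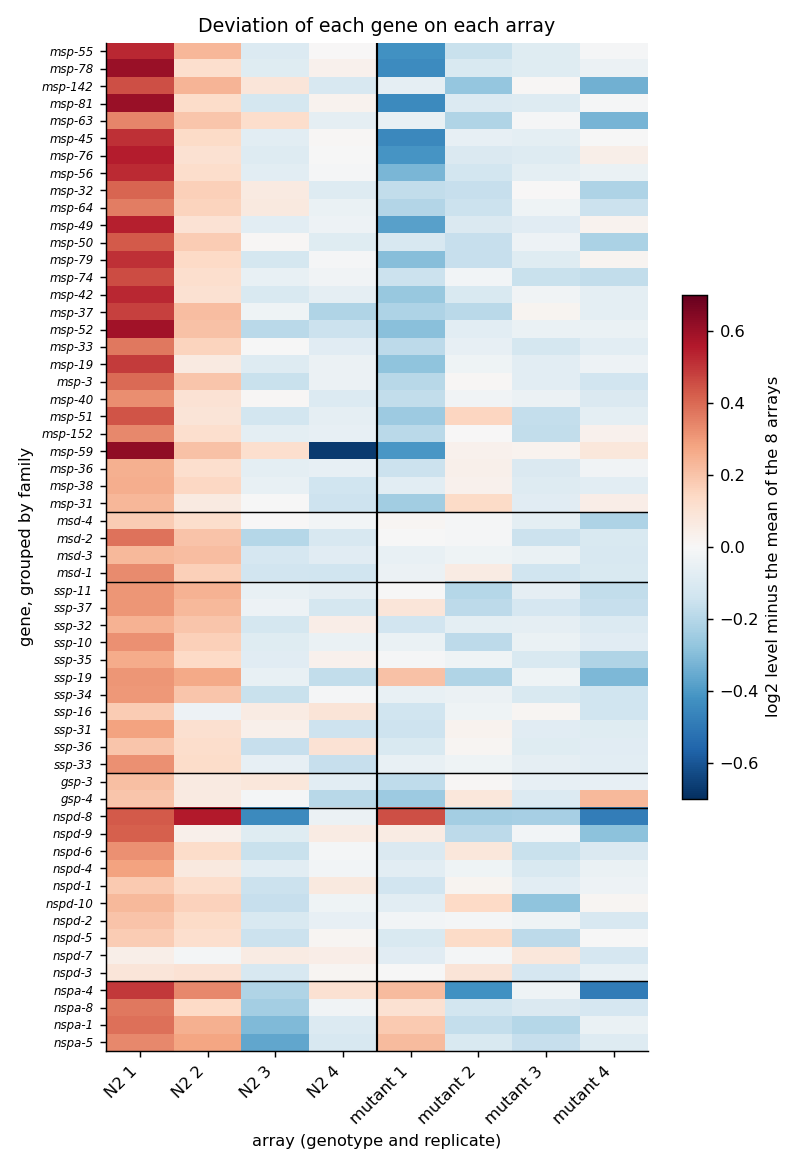
Log2 level of each of the 58 members on each array minus its mean over the 8 arrays, with genes in rows by family and arrays in columns. Red is above and blue below the mean of the gene. N2 replicate 1 is the highest array in 54 of 58 genes, and aptf-1(gk794) replicate 1 is the lowest in 20 of the 27 msp genes, in the first rows.

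Within a genotype the members differed in spread. The median SD over the 58 members was 0.21 in N2 and 0.10 in aptf-1(gk794) (n = 4 arrays each), where over all genes tested it was 0.18 and 0.19. For the msp genes it was 0.25 and 0.12. The mean level over all 58 members was 5.23, 5.03, 4.79 and 4.81 in N2 replicates 1 to 4 and 4.75, 4.81, 4.79 and 4.77 in aptf-1(gk794) replicates 1 to 4, or 4.96 ± 0.21 and 4.78 ± 0.026 (SD). N2 replicates 3 and 4 were thus at the level of the mutant arrays. Without N2 replicate 1 the median difference of the members was -0.095 and that of the msp genes -0.13, 55 of 58 members were below 0, and 0 members had an unadjusted p under 0.05.

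The count of 4 members with an unadjusted p under 0.05 depended on single arrays. It was 10 without N2 replicate 3 and 8 without N2 replicate 4. It was 2 without aptf-1(gk794) replicate 1 and 0 without aptf-1(gk794) replicate 2, aptf-1(gk794) replicate 4, N2 replicate 1 or N2 replicate 2. The adjusted p stayed above the threshold for every member with each of the 8 arrays left out in turn.

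On the 2 slides taken by themselves, 54 members were below 0 on the first and 55 on the second, with 2 arrays of each genotype on each. Each slide held 1 of the high N2 arrays at position 1, replicate 1 on the first and replicate 2 on the second. The slides thus share this layout and do not separate genotype from position, and no fit left out both of these arrays. The median of the msp genes was -0.39 on the first slide, which held N2 replicate 1 and aptf-1(gk794) replicate 1, and -0.11 on the second. The ssp genes were closer, with -0.17 and -0.19, and the nspa genes had -0.054 and -0.20. Of the 17 members with over 1 probe, all had all their probes below 0, as did the 92 probes taken singly, in the scaling by the 75th percentile.

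Bright genes outside these families also lay below 0 in this scaling. Among non-members with a mean level above 6 there were 183 genes with a median difference of -0.17, and 92.9% of them were below 0, while the 22 members in that range had a median of -0.24. Among non-members between 4 and 6 there were 349 genes with a median of -0.14, and 85.1% of them were below 0. The 19 members in that range had a median of -0.13. Below a level of 4 the members and the other genes were farther apart. The 7 members between 2 and 4 had a median of -0.14 beside -0.058 for 1285 other genes, the 6 members between 0 and 2 had -0.13 beside 0.0030 for 4036 others, and the 4 members below 0 had -0.21 beside -0.024 for 12403 others. After quantile normalization 67 of the 183 bright non-members were below 0 and their median was 0.029.

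**Figure D4:**
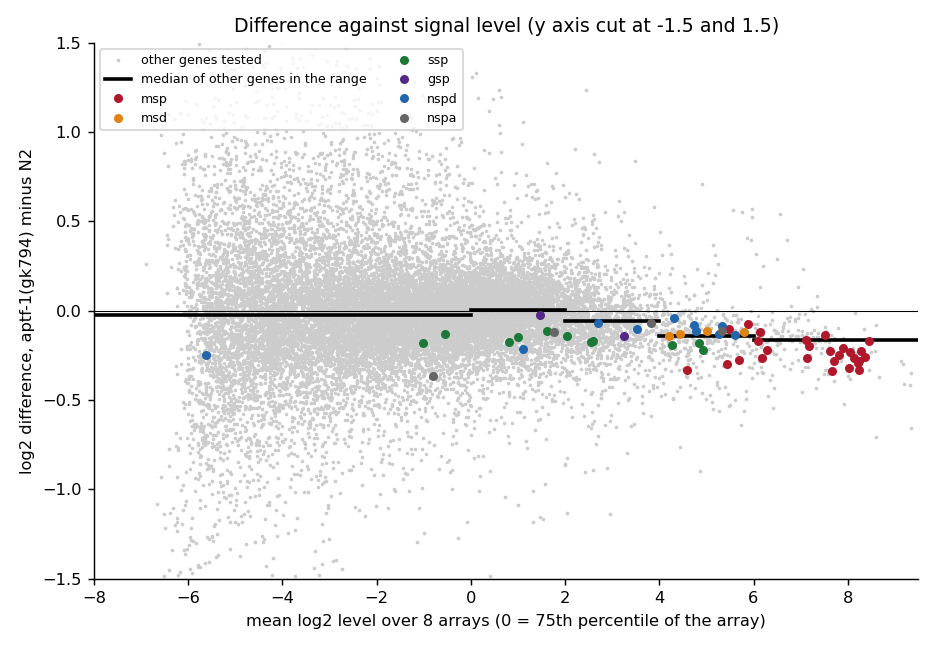
Difference between aptf-1(gk794) and N2 on the log2 scale (y) against the mean log2 level over 8 arrays (x) for members, colored by family, and for the other genes tested (grey), with points beyond the y range not drawn. Black bars are medians of the other genes in 5 ranges of level, -0.17 above a level of 6 and near 0 below a level of 2. The members lie below 0 in every range in this scaling. After quantile normalization 37 of the 58 members were below 0, among them all 11 ssp genes and the gsp pair.

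Genes next to members on the chromosomes were compared in the same fit. In the reference order, 18 members lay next to another gene of the families. The 72 neighbors that were tested and are no members had a median of -0.047, 47 of them were below 0, and 0 were called. Of all genes tested 54.7% were below 0 and 0.0928% were called. At an unadjusted p under 0.05, 4 neighbors were lower, against 7.76% of all genes tested, and 1 was higher, against 4.48%.

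Other genes of the sperm program were read from fixed lists, and 0 of them passed the threshold. In the list of sperm assembly and the sperm cytoskeleton, which holds genes for the making of the fibrous bodies that store major sperm protein, 11 of 15 genes were tested, 9 were below 0 and the median was -0.092. Among them elt-1, a GATA transcription factor, had -0.14 (adjusted p = 0.544 by limma). In the list of sperm activation and sperm-egg contact, 15 of 16 were tested, 12 were below 0 and the median was -0.086. There spe-8, a kinase of the sperm activation pathway, had -0.23 (adjusted p = 0.406 by limma) and was the only gene with an unadjusted p under 0.05, and spe-27 of the same pathway had -0.17.

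Genes that respond to major sperm protein in the oocyte and sheath showed no common sign, with 7 of 14 tested genes below 0 and a median of -0.032. Their smallest p was that of itr-1, the receptor for inositol trisphosphate that releases calcium in the sheath. Its levels were -0.68, -0.63, -0.38 and -0.57 in N2 and -0.85, -0.94, -0.86 and -0.795 in aptf-1(gk794), with no overlap, and the difference was -0.29 (adjusted p = 0.290 by limma). The kinase gene kin-1 came next with -0.16.

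In the list of genes that set sperm or oocyte fate, 5 of 11 were below 0 and the median was 0.049. The sex determination gene tra-2, which promotes the female fate, had levels of -1.69, -1.65, -1.73 and -1.61 in N2 and -1.42, -1.45, -1.45 and -1.44 in aptf-1(gk794), with no overlap and a difference of 0.23 (adjusted p = 0.281 by limma). The gene fog-3, which is needed for germ cells to become sperm, had levels of -2.47, -2.54, -2.61 and -2.495 in N2 and -3.18, -2.95, -2.77 and -2.70 in aptf-1(gk794). Its arrays did not overlap either, and the difference was -0.37 (adjusted p = 0.302 by limma). Neither passed the threshold after adjustment over all genes. The other genes above 0 in this list were fem-3 (0.24), puf-8 (0.21), fog-2 (0.14), fem-1 (0.080) and fog-1 (0.049), and the arrays of puf-8 did not overlap. Of all genes tested, 5.02% had no overlap in the direction lower and 3.1% in the direction higher.

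Markers of other cells and of the stage were measured beside these values. Of 14 oocyte and eggshell markers 13 were above 0, with a median of 0.20 and array means of 2.69 to 3.26 in N2 and 3.12 to 3.43 in aptf-1(gk794). After quantile normalization 0 of these 14 were below 0, and with median scaling 2 were. N2 replicate 4 was the lowest array, with the other N2 arrays at 3.07 to 3.26. Without N2 replicate 4 the median was 0.090 and 2 of the 14 were below 0. The smallest p among them were those of the chitin synthase gene chs-1, with a range of 1.83 to 2.38 in N2 and 2.44 to 2.77 in the mutant (0.43, adjusted p = 0.318 by limma), and of egg-2 (0.32). Of 13 markers of the mitotic and pachytene germ line 11 were above 0, with a median of 0.065 and array means of 1.28 to 1.45 in N2 and 1.42 to 1.49 in aptf-1(gk794). The smallest p there were those of syp-2 (0.43, adjusted p = 0.516 by limma) and syp-4 (0.080). For syp-2 the levels were 0.95, 0.56, 0.65 and 0.40 in N2 and 0.56, 1.66, 0.63 and 1.42 in aptf-1(gk794). Mutant replicates 2 and 4, the arrays at position 4, were the high ones, and without both of them its difference was -0.045.

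Male neuron markers were read because males would bring sperm RNA of their own. Of 8 such genes, cwp-1, cwp-3, cwp-5 and pkd-2 were not well above background on all 4 arrays of either genotype. The 4 tested genes had a median of -0.52, with array means of -4.81 to -4.38 in N2 and -5.90 to -4.46 in the mutant, and the smallest p were those of lov-1 (-1.60, adjusted p = 0.436 by limma) and cwp-2 (-0.76). For lov-1 the levels were -3.62, -4.40, -4.62 and -4.79 in N2 and -4.40, -6.31, -4.89 and -8.22 in aptf-1(gk794). It had no probe well above background on all 8 arrays, so its difference may be a bound. The 3 genes with such a probe had a median of -0.28.

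Molting markers varied most. Of 10 tested genes 2 were below 0 and the median was 0.30, with array means of -3.04 to -2.51 in N2 and -3.09 to -1.39 in aptf-1(gk794). The matrix gene noah-2 (-0.96, adjusted p = 0.244 by limma) and the timing gene lin-42 (-0.92) had the smallest p, and in both the genotypes did not overlap. The 8 others were above 0, and of these mlt-10 (2.65), ptr-4 (1.56), qua-1 (0.93) and mlt-11 (0.58), chosen after their values were seen, had the largest differences. In all 4 of them aptf-1(gk794) replicates 3 and 4 were the highest arrays, with mlt-10 at 2.19 and 1.54 there and between -3.79 and -1.97 on the other 6 arrays. These replicates were the mutant arrays of slide 2, so slide and sample cannot be told apart within the mutant. None of these 4 genes passed the threshold (adjusted p from 0.384 to 0.553 by limma). All 6 body wall muscle markers were below 0, with a median of -0.16 and array means of 4.67 to 4.75 in N2 and 4.41 to 4.69 in the mutant, led by act-4 (-0.24, adjusted p = 0.407 by limma) and lev-11 (-0.18). After quantile normalization 4 of these 6 were below 0 and their median was -0.075. All 5 tested intestine markers were below 0, with a median of -0.19 and array means of 1.66 to 2.12 and 1.48 to 1.65, led by act-5 (-0.55, adjusted p = 0.134 by limma) and elt-2 (-0.36). The same 5 were below 0 after quantile normalization, with a median of -0.20. The part of the stage of the animals or of other tissues in the values of the sperm genes was not tested.

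**Figure D5:**
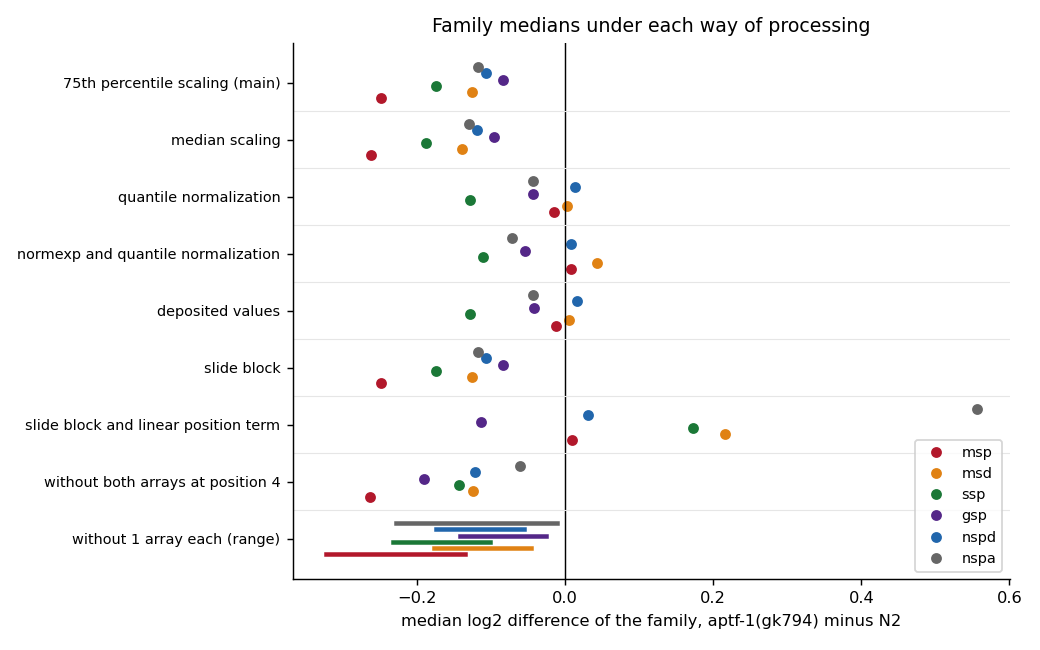
Median log2 difference (aptf-1(gk794) minus N2) of each of the 6 families under each way of processing, with the range over leaving out 1 array at a time in the last row. The msp median is -0.25 with 75th percentile scaling and -0.015 after quantile normalization, and the signs of the families differ among settings, with only the gsp pair below 0 when slide and position are terms of the fit.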

How the data were processed

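Total RNA of 4 samples of aptf-1(gk794) and 4 of N2, which the study calls biological samples, was labelled with Cy3 (200 ng per sample) and hybridized to arrays designed on the ce4 genome and WormBase WS170. The authors deposited the scanner output as linear spot intensities, per the file headers from Agilent Feature Extraction (version 10.7.3.1), with background subtracted and no scaling between arrays. They also deposited a table of intensities that matches these values in rank on each array and is quantile normalized, which was used only as an alternative. Its scale is linear.

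Spots that were controls or carried an outlier flag (18 to 62 on an array) were dropped. The log2 processed signal was the mean of the spots of each probe, and the 75th percentile of each array was subtracted. The test took probes that all 4 arrays of a genotype showed well above background (32011 of 43603 probes), and the tested probes of a gene were averaged. Probes were named by locus tag or accession through a gene table for WBcel235, which matched 34265 probes (78.6%) to 19793 genes. That assembly differs from the array's, so no coordinates are given. Probe sequences were not used here, and cross-hybridization between msp copies could not be checked.

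Genotypes were compared with two-sided limma tests (version 3.58.1, R 4.3.3, functions lmFit and eBayes, genotype as the only term), with Benjamini-Hochberg adjustment over 18314 genes and unnamed targets. Calls needed a fold change of 1.5 or more and an adjusted p under 0.05. Over all genes 17 were called, 11 lower and 6 higher in the mutant. The procedure was tested on simulated data. With 4 arrays for each genotype, their number sets the precision.

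Members and lists were chosen with earlier results of these data known. Named genes were gsp-3 and gsp-4; in each other family the 3 members with the smallest p, those with the highest and the lowest difference and the one nearest the median; and 2 genes per further list with the smallest p, of which 1 is not reported here. Alternatives were median scaling, quantile normalization, normexp (offset 50) on the median spot and background signal, since the files hold no mean spot signal, with quantile normalization, the deposited values, testing every probe, testing only probes above background on all 8 arrays, the median of probes, slide, slide and position, replicate number, and leaving out arrays. Python 3.11.15, numpy 2.4.6, pandas 2.3.3 and matplotlib 3.10.9 were used.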

Additional observations from a re-analysis of the deposited data

Results flagged for a closer look

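In groups of 4 arrays, 66 groups were screened for 1 array far from the other 3, by its gap to the nearest array as a share of the range of the group, against Dixon's critical value at 95%. Chance passes about 1 in 20 groups, or 3.3 of these 66, and 3 passed. The msp mean in aptf-1(gk794) had a share of 0.968, with replicate 1 at 6.91 below the others at 7.091 to 7.097. msp-74 in aptf-1(gk794) had a share of 0.881, with replicate 2 at 7.79 above the others at 7.64 to 7.65. nspa-8 in aptf-1(gk794) had a share of 0.871, with replicate 1 at 1.88 above the others at 1.64 to 1.67.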

How the results depend on the processing

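No member was called under any alternative run. Values are log2 differences unless called counts, and single genes are given only where they are among the named genes.

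After quantile normalization 0 members were lower at an unadjusted p under 0.05, 37 members were below 0, and the medians were -0.024 over all members and -0.015 for msp. Among the named genes the sign turned for msp-31 (0.077), msd-1 (0.0049), msd-2 (0.0013), msd-3 (0.045), nspd-1 (0.013), nspd-3 (0.077), nspd-4 (0.014), nspa-1 (0.036) and nspa-5 (0.022). With the deposited values the counts were 0 and 37, the medians -0.025 and -0.012, and the same 9 named genes turned, msp-31 (0.080), msd-1 (0.0054), msd-2 (0.0042), msd-3 (0.048), nspd-1 (0.015), nspd-3 (0.081), nspd-4 (0.016), nspa-1 (0.040) and nspa-5 (0.022). With normexp and quantile normalization 0 members were lower and 1 was higher at an unadjusted p under 0.05, 1 had groups that did not overlap in the direction higher, 33 were below 0, and the medians were -0.024 over all members, 0.0083 for msp and 0.043 for msd. Among the named genes the sign turned for msp-31 (0.075), msp-74 (0.041), msd-1 (0.014), msd-2 (0.072), msd-3 (0.080), nspd-1 (0.025), nspd-3 (0.089), nspd-4 (0.015) and nspa-1 (0.056). These 3 alternatives share the quantile step.

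With slide and a linear position term 0 members were lower and 2 were higher at an unadjusted p under 0.05, 21 were below 0, and the medians were 0.056 over all members, 0.0090 for msp, 0.22 for msd, 0.17 for ssp, 0.030 for nspd and 0.56 for nspa. Among the named genes the sign turned for msp-63 (0.18), msp-64 (0.016), msp-74 (0.017), msp-142 (0.30), msd-1 (0.21), msd-2 (0.29), msd-3 (0.23), msd-4 (0.11), ssp-11 (0.27), ssp-19 (0.58), ssp-32 (0.062), ssp-33 (0.21), ssp-35 (0.11), nspd-3 (0.016), nspd-4 (0.045), nspd-8 (0.95), nspd-9 (0.28), nspa-1 (0.51), nspa-4 (0.65), nspa-5 (0.61) and nspa-8 (0.39).

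The count of lower members at an unadjusted p under 0.05 was 2 with no filter and 2 with the slide as a block. The count of members with groups that did not overlap, lower, was 3 with median scaling and 1 with the median of probes. Without both arrays at position 4, an alternative chosen after seeing the data, as was the count of members below 0, these counts were 0 and 7, and ssp-19 turned to 0.00037.

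With the replicate number as a block, 2 members were lower at an unadjusted p under 0.05 and 0 genes of the whole array were called. Whether the numbers pair the samples is not known here. Same-numbered arrays had correlations of -0.11, 0.24, 0.062 and 0.20, and not every array correlated best with its own number. Such correlations cannot decide whether samples were handled together.

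Leaving out each array in turn, the lower count ran from 0 to 10, and the count of lower members without overlap from 0 to 11. Among the named genes gsp-4 turned without aptf-1(gk794) replicate 1 (0.056), aptf-1(gk794) replicate 3 (0.0035) and N2 replicate 1 (0.035), and nspa-5 without N2 replicate 1 (0.032) and N2 replicate 2 (0.012). Outside them, msp-59 turned without N2 replicate 1 (0.047). Over the 8 such fits gsp-4 ran from -0.10 to 0.056 and nspa-5 from -0.20 to 0.032. The cause of these changes was not tested.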
